A study of Mus musculus with 6 samples.

Results

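This section describes 9 mouse genes of the complement system in the tibialis anterior (TA) muscle of old mice. They were C1ra, C1s1, C2, C3, C4b, Cfb, Serping1, Masp1 and C3ar1. They were taken as a list of genes named for their place in the pathway, with no threshold on a measured value. The list was chosen with earlier results of these data known, so no test was run on it as a whole. All 9 were found in the count table, which lists 45777 genes, and all 9 were among the 16188 genes tested and the 16800 genes with a TPM value (a level corrected for transcript length and library size).

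The mice were male C57BL/6J of 24 months per the labels (the study's text also gives older ages for these mice). The 3 vehicle mice received DMSO with Tween 80, and the 3 BML-260 mice received BML-260 at 5 mg/kg in the same way, by intraperitoneal injection every day for 1 month. BML-260 is a small molecule that inhibits the phosphatase DUSP22, and the comparison was made to find which genes of the muscle change with that treatment. Each library was made from total RNA of the whole TA muscle of 1 mouse, so it holds RNA of every cell type in the tissue, and there was no untreated young group among these libraries.

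Complement is a cascade of plasma proteins that tags microbes, dead cells and debris. It starts from the C1 complex (the classical pathway), from sugar-binding lectins with their proteases (the lectin pathway) or directly on surfaces (the alternative pathway), and every route meets at the cleavage of C3. The liver makes most of the circulating protein, but macrophages, fibroblasts and other cells of a tissue also make components on site, and complement takes part in the clearance of damaged fibers in injured muscle. In the liver, C3 and other members of the cascade belong to the acute-phase genes, which respond to cytokines through factors such as C/EBP, STAT and NF-kB.

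The vehicle libraries held 47814115, 39793301 and 52165766 counts and the BML-260 libraries 56998875, 47740677 and 39522890. Vehicle replicate 3 stood apart from the other 5 libraries: its median Pearson correlation with the others across genes was 0.943, against 0.972 to 0.982 for the rest, and its normalized count was above that of every other library for 9 of the 9 complement genes. Over all tested genes that library was the highest for 31.8% and the lowest for 31.7%. Values without vehicle replicate 3 are therefore given beside the log2 fold changes below. Muscle fiber markers were high in all 6 libraries, with a summed TPM of 6 markers between 79213 (vehicle replicate 3) and 106103. By normalized counts, vehicle replicate 3 held 0.457 times the mean of vehicle replicates 1 and 2 for Ckm. The same ratio was 0.478 for Mylpf, 0.540 for Myh4, 0.613 for Acta1, 0.832 for Myh1 and 0.903 for Tnnt3.

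C3 is the gene at which all routes meet, and its promoter is shown because C3 had the highest mean TPM of the 9 genes in vehicle muscle. The 250 bases before its start lie at chr17:57228137-57228386 of GRCm38 on the minus strand and were taken from RefSeq (GRCm38.p6). Capitals mark the matches to the C/EBP letters TTNNGNAA.
C3 promoter: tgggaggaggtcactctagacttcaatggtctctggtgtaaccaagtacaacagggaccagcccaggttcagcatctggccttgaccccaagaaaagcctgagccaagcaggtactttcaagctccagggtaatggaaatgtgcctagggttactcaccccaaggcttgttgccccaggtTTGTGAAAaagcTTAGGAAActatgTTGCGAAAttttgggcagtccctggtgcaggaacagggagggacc
The 3 marked matches begin at positions -70, -58 and -45, counted from the first base of the transcript. Windows of 300 bases (250 before and 50 after the start) were held for 4 of the 9 genes: C3, C1ra, C1s1 and C3ar1. Both strands were searched. The C/EBP letters were found in the windows of C3, C1ra and C1s1, and in 40.7% of all 32851 promoter windows, while 3.6% of all windows held 3 or more matches, as those of C3 and C1ra did. The STAT letters TTCNNNGAA were found for C1ra alone among the 4 genes, at position 33, and in 8.3% of all windows. The NF-kB letters (GGG and CC with any 5 bases between) were found for C3, C1s1 and C3ar1 and in 50.8% of all windows, and the ISRE letters of interferon-responsive genes (GAAA, any 2 bases and GAAA again) were found for none of the 4 genes and in 3.44% of all windows. A match describes the letters of the window and is not a shown binding site.

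All 9 complement genes had a lower fitted level in BML-260 muscle than in vehicle muscle, and 4 of them were called, meaning an unadjusted p under 0.05 in edgeR's quasi-likelihood test with a fold change of at least 1.3. These were C4b, the common form of the C4 component, Cfb, the protease precursor of the alternative pathway, C3 itself, and C3ar1, the receptor for the C3a fragment. The median log2 fold change of the 9 genes was -0.71, against -0.0039 over all 16188 tested genes. By the same rule 4.86% of all tested genes were called lower with BML-260 and 0.896% higher. None of the 9 genes passed a Benjamini-Hochberg adjusted p under 0.05 in edgeR's quasi-likelihood test, and neither did any other tested gene (0%), although 966 genes had an unadjusted p under 0.05. In bulk tissue, fewer cells of a type and less RNA per cell cannot be told apart.

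Without vehicle replicate 3 the call was left for C4b and Cfb, 2 of the 9 genes, where 2.92% of all tested genes were called lower and 1.06% higher. The median log2 fold change of the 9 genes was then -0.27, against 0.0017 over all tested genes, and 8 of the 9 were lower. With DESeq2, the tool of the study, 5 of the 9 genes were called lower (C2 in addition), where 5.19% of all tested genes were, and 0 of the 9 passed an adjusted p under 0.05 although 95 genes did so. The 3 libraries of one group did not overlap the 3 of the other for 3 of the 9 genes, C4b, Cfb and C3ar1, where 6.75% of all tested genes were separated in this direction. Without vehicle replicate 3 the same 3 genes were separated, and the share over all tested genes was 9.36%.

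**Figure D1:**
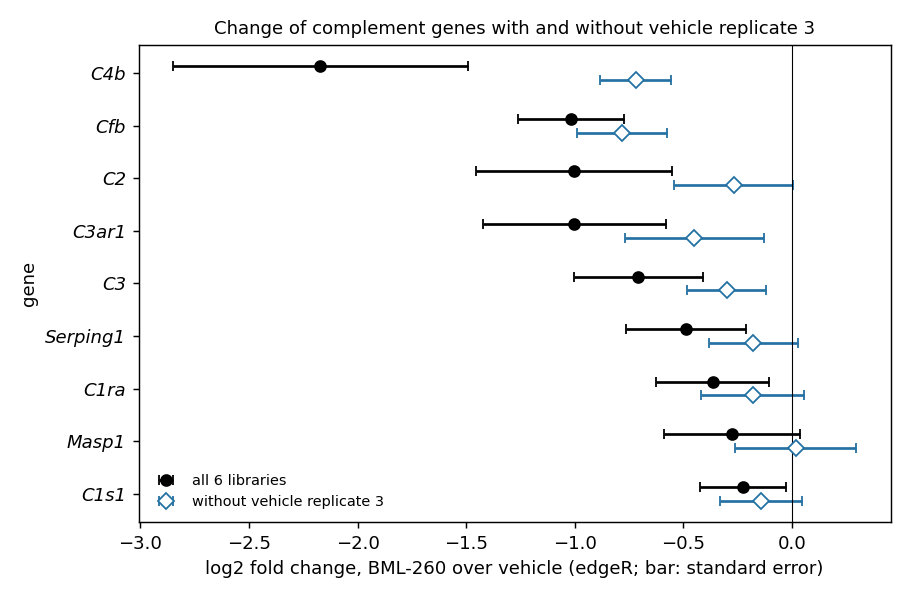
Log2 fold change of each complement gene, BML-260 over vehicle (x axis), by gene (y axis), from edgeR's quasi-likelihood fit with all 6 libraries (filled circles) and without vehicle replicate 3 (open diamonds), with bars of 1 standard error. C4b moves from -2.17 to -0.72 and Masp1 from -0.28 to 0.016 when that library is left out, while Cfb moves from -1.02 to -0.78.

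C1ra, C1s1 and Serping1 belong together at the start of the classical pathway. C1r and C1s are the serine proteases of the C1 complex, and Serping1 encodes C1 inhibitor, which inactivates both. None of the 3 genes passed the test. Serping1 is on chr2:84765387-84775444 (minus strand, 8 exons) of GRCm38, C1ra on chr6:124512405-124523443 (plus strand, 11 exons) and C1s1 on chr6:124530345-124542359 (minus strand, 12 exons), with 6901 bases between the last 2.

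C1ra had normalized counts of 718, 449.6 and 826 in the vehicle libraries and of 670.0, 434 and 448 in the BML-260 libraries. The groups overlapped, with means of 665 ± 194 and 517 ± 132 (SD, n = 3 each). C1ra had a log2 fold change of -0.36 (SE 0.26, edgeR quasi-likelihood test, Benjamini-Hochberg adjusted p = 0.788), and of -0.18 (SE 0.24) without vehicle replicate 3.

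C1s1 had normalized counts of 2293, 1723 and 2382 in vehicle muscle and of 2277, 1647 and 1554 in BML-260 muscle. The first replicate of each group was nearly equal, and the groups overlapped. The log2 fold change of C1s1 was -0.23 (SE 0.20, edgeR adjusted p = 0.800), or -0.14 (SE 0.19) without vehicle replicate 3, and it was the one gene of the 9 called under none of the 16 alternative settings. An antisense gene, Gm16567, lies across C1s1 on the other strand. The library kit keeps strand, but whether the counting used it is not given in the sources used here.

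Serping1 had normalized counts of 2374, 1584 and 3422 in vehicle muscle and of 2176, 1606 and 1487 in BML-260 muscle. Vehicle replicate 3 was the highest, and vehicle replicate 2 lay within the BML-260 range. Serping1 had a log2 fold change of -0.49 (SE 0.28, edgeR adjusted p = 0.788) and -0.18 (SE 0.20) without vehicle replicate 3.

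The TPM of C1s1 was 2.71 to 3.60 times that of C1ra in the 6 libraries, and the TPM of Serping1 was 4.93 to 6.28 times that of C1ra. The TPM ratio of the inhibitor Serping1 to the protease C1s1 was 2.32 in vehicle replicate 3 and 1.48 to 1.67 in the other 5 libraries. Reads of near-identical copies may be split between genes. The copies C1rb and C1s2 took 14.7% to 18.8% of the summed counts of C1ra with C1rb and 3.14% to 3.87% of those of C1s1 with C1s2, and with the copies summed the log2 fold changes were -0.35 and -0.23.

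C4b and C2 follow next. C1s cleaves C4 and C2, and their fragments C4b and C2a form the C3 convertase shared by the classical and lectin pathways. C4b had the lowest log2 fold change of the 9 genes with all 6 libraries, and Cfb had it without vehicle replicate 3. It is on chr17:34728380-34743882 (minus strand, 41 exons).

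C4b had normalized counts of 1039, 848 and 5876 in the vehicle libraries. In the BML-260 libraries it had 614, 636 and 473. All 3 vehicle libraries lay above all 3 BML-260 libraries, and vehicle replicate 3 held 6.23 times the mean of the other 2 vehicle libraries. The log2 fold change of C4b was -2.17 (SE 0.68, unadjusted p = 0.0119, edgeR adjusted p = 0.699), at percentile 0.605 of the log2 fold changes of all tested genes. Without vehicle replicate 3 it was -0.72 (SE 0.17, unadjusted p = 0.00115, edgeR adjusted p = 0.241). C4b was called lower with each of the 6 libraries left out in turn, at log2 fold changes between -2.59 and -0.72. The call was lost with the replicate number as a block (-1.53) and with limma on log2(TPM + 1) with or without a filter (-1.57), and kept under 13 of the 16 alternative settings. The mean TPM of C4b was 21.9 ± 27.4 in vehicle muscle and 3.70 ± 0.572 in BML-260 muscle (SD, n = 3 each), a ratio of 0.169, or 0.613 without vehicle replicate 3. The sister gene C4a took 5.84% to 7.52% of the counts of both C4 genes, and their sum had a log2 fold change of -2.16.

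C2 had normalized counts of 136, 98.3 and 351 in vehicle muscle and of 119.9, 84.8 and 88.4 in BML-260 muscle. Vehicle replicate 2 lay within the BML-260 range, and vehicle replicate 3 was 2.99 times the mean of the other 2 vehicle libraries. For C2 the log2 fold change was -1.00 (SE 0.45, unadjusted p = 0.0552, edgeR adjusted p = 0.788), as large as that of C3ar1 but just outside the threshold. Without vehicle replicate 3 it was -0.27 (SE 0.27). C2 is on chr17:34862604-34898265 (minus strand, 18 exons), and Zbtb12, with a mean of 90.2 normalized counts, overlaps it on the other strand.

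Masp1 encodes the lectin pathway protease MASP-1, which rests on mannose-binding lectin, ficolins and collectins. It had the smallest spread of the 9 genes among the BML-260 libraries relative to its level, with normalized counts of 144, 126 and 139. The vehicle libraries had 173, 93.2 and 226, on both sides of the BML-260 range. For Masp1 the log2 fold change was -0.28 (SE 0.31, edgeR adjusted p = 0.830), and without vehicle replicate 3 it turned to 0.016 (SE 0.28). Masp1 is on chr16:23449417-23520815 (minus strand, 16 exons), and Rtp4, with a mean of 105 normalized counts, overlaps its start on the other strand.

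C3 and Cfb form the amplification loop of the alternative pathway, in which factor B binds the C3b fragment and is cleaved to give more C3 convertase. Both were called lower. C3 is on chr17:57203970-57228136 (minus strand, 41 exons) and Cfb on chr17:34856374-34862518 (minus strand, 18 exons).

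C3 had normalized counts of 6164, 4713 and 10790.5 in vehicle muscle and of 5390.3, 4069 and 3821 in BML-260 muscle. It was the most abundant of the 9 genes by counts in every library, and vehicle replicate 2 lay within the BML-260 range. The log2 fold change of C3 was -0.71 (SE 0.30, unadjusted p = 0.0436, edgeR adjusted p = 0.788). The call was lost without vehicle replicate 3 (-0.30, SE 0.18), without BML-260 replicate 2 and without BML-260 replicate 3. It was also lost with the replicate number as a block (-0.63) and in the 3 limma fits on TPM, and was kept under 8 of the 16 alternative settings. The log2 fold changes of C3 with 1 library left out lay between -0.94 and -0.30.

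Cfb had normalized counts of 368, 353 and 551 in the vehicle libraries and of 266, 179 and 184 in the BML-260 libraries. The groups did not overlap, and the lowest vehicle library was above the highest BML-260 library with or without vehicle replicate 3. Cfb fell from 424 ± 111 to 209 ± 48.7 normalized counts (SD, n = 3 each). Its log2 fold change was -1.02 (SE 0.24, unadjusted p = 0.00279, edgeR adjusted p = 0.623) and -0.78 (SE 0.21, unadjusted p = 0.00327) without vehicle replicate 3. It had the smallest p of the 9 genes, at rank 72 of all tested genes, against rank 271 for C4b. Cfb was called lower under all 16 alternative settings, with adjusted p between 0.0511 (DESeq2) and 0.984. The mean TPM of Cfb was 6.34 ± 3.15 in vehicle muscle and 2.65 ± 0.398 in BML-260 muscle, a ratio of 0.417, or 0.585 without vehicle replicate 3.

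The TPM ratio of Cfb to C3 was 0.106, 0.134 and 0.0903 in the vehicle libraries and 0.0904, 0.0796 and 0.0911 in the BML-260 libraries, and the groups overlapped. The TPM ratio of C4b to C3 ran from 0.107 to 0.485, with its highest value in vehicle replicate 3 and 0.152 and 0.164 in vehicle replicates 1 and 2.

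C3ar1 encodes the receptor through which the C3a fragment acts on myeloid and other cells. It was called lower, on the lowest TPM of the 9 genes. Its normalized counts were 92.3, 118 and 249.6 in vehicle muscle and 90.5, 48.9 and 90.8 in BML-260 muscle. The groups were separated by the step from 90.8 to 92.3 alone, and on the TPM scale they overlapped. C3ar1 had a log2 fold change of -1.00 (SE 0.42, unadjusted p = 0.0433, edgeR adjusted p = 0.788) and -0.45 (SE 0.32) without vehicle replicate 3. The call was also lost with any 1 of the 3 BML-260 libraries left out and in the 3 limma fits on TPM, and was kept under 8 of the 16 alternative settings. C3ar1 is on chr6:122847138-122856161 (minus strand, 2 exons).

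**Figure D2:**
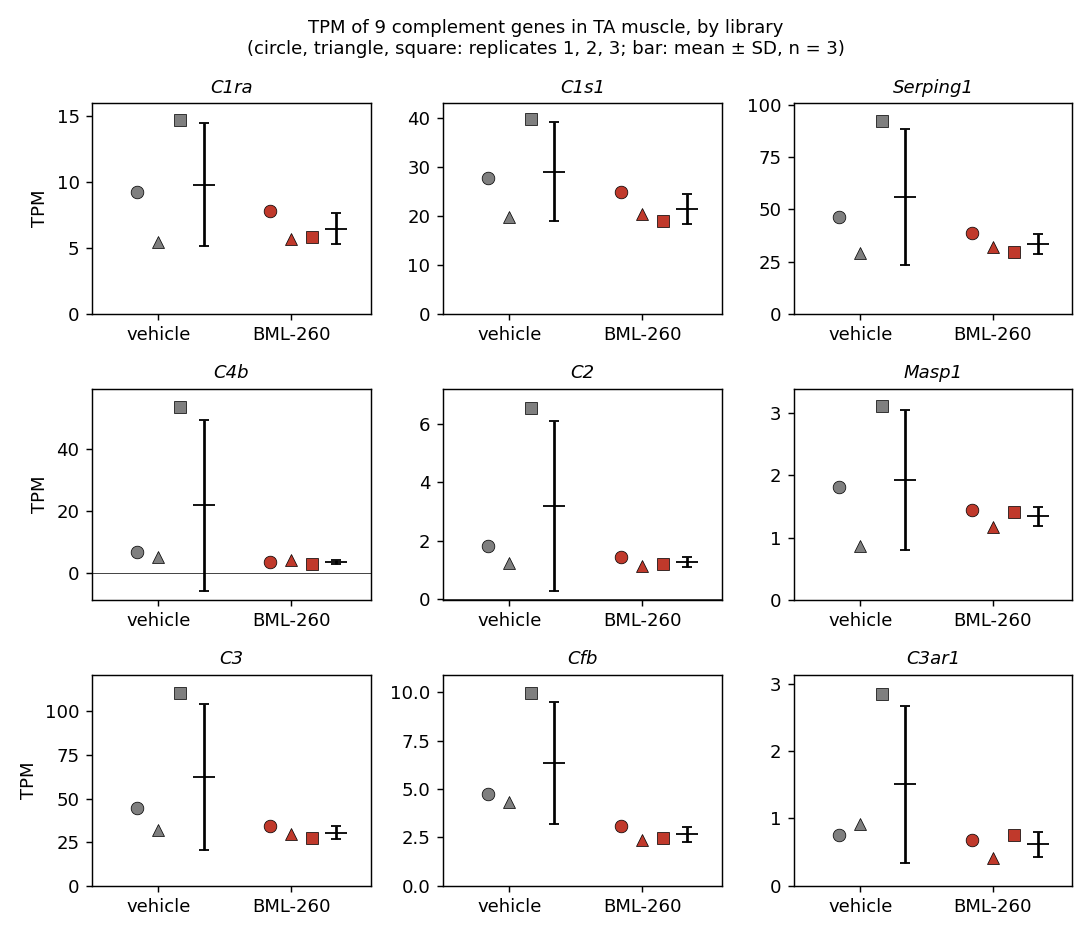
TPM (y axis, own scale in each panel) of the 9 complement genes in the 3 vehicle and 3 BML-260 libraries, with points for single libraries and the group mean with its SD. Vehicle replicate 3 is the highest point in all 9 panels, for C4b at 53.6 TPM against 3.15 to 6.81 TPM in the other 5 libraries.

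On the TPM scale, which allows genes to be compared, C3 and Serping1 led in both groups. The mean TPM in vehicle muscle was 62.4 ± 42.1 for C3, 55.9 ± 32.7 for Serping1 and 29.0 ± 10.1 for C1s1 (SD, n = 3). C4b, C1ra, Cfb, C2, Masp1 and C3ar1 followed, down to 1.51 ± 1.17 TPM for C3ar1. The library ranges of every pair of neighbours in this vehicle order overlapped. In BML-260 muscle the order ran from Serping1 at 33.4 ± 4.67 TPM and C3 at 30.4 ± 3.60 TPM through C1s1, C1ra, C4b, Cfb, Masp1 and C2 to C3ar1 at 0.615 ± 0.184 TPM. There, the ranges overlapped only between Serping1 and C3 and between Masp1 and C2. The summed TPM of the 9 genes was 143.5, 98.96 and 333.3 in the vehicle libraries and 115.9, 97.2 and 90.5 in the BML-260 libraries.

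C4b, Cfb and C2 are neighbours in the class III part of the major histocompatibility complex, within 169886 bases of chromosome 17. Cfb and C2 arose by duplication and lie 85 bases apart, and 112491 bases separate C4b from Cfb. A read-through gene, Gm20547, overlaps both Cfb and C2 on the same strand and was not found by name in the count table. How reads that join Cfb and C2 were counted is not given in the sources used here. The 5 other tested genes of the span that belong to no complement list were Stk19, Dxo, Skiv2l, Nelfe and Zbtb12, and 0 of the 5 were called in edgeR's test, 0 of them also at an unadjusted p under 0.05. Their log2 fold changes lay between -0.26 for Nelfe and 0.040 for Zbtb12, with a median of -0.14. The tested complement genes of the span lay between -2.17 (C4b) and -1.00 (C2), and C4a, called lower, at -1.98 (SE 0.65). They lay closer to their neighbours without vehicle replicate 3: C4b was at -0.72, C4a at -0.69 and no longer called, Cfb at -0.78 and C2 at -0.27. The neighbours were then at -0.20 (Zbtb12), -0.15 (Dxo), -0.14 (Nelfe), -0.058 (Skiv2l) and 0.096 (Stk19).

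**Figure D3:**
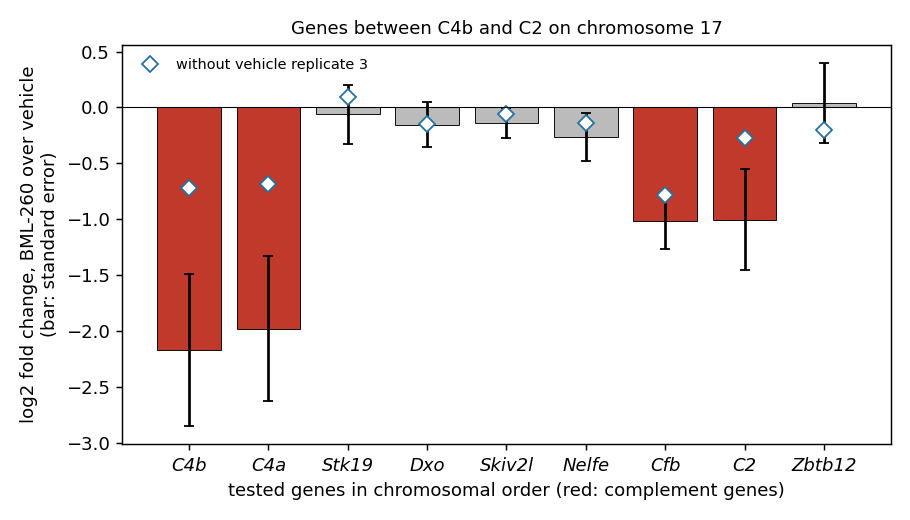
Log2 fold change, BML-260 over vehicle (y axis, bars from 0 with 1 standard error), of the tested genes from C4b to C2 and Zbtb12 in chromosomal order (x axis), complement genes in red, other genes in grey, and open diamonds for the fit without vehicle replicate 3. The 5 grey bars lie between -0.26 and 0.040, and the 4 red bars lie at -1.00 or below.

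The rest of the pathway was read from lists of 47 further genes, of which 33 were tested. Of these, 24 were lower and 9 higher with BML-260, and 9 were called lower and 1 higher, with a median log2 fold change of -0.45 (over all tested genes, 4.86% were called lower and 0.896% higher). Without vehicle replicate 3, 26 were lower and 7 higher, 6 were called lower and 0 higher, against 2.92% and 1.06% of all tested genes, and the median was -0.19. None of the 33 passed an adjusted p under 0.05 in edgeR's test, where 10 had an unadjusted p under 0.05. In the DESeq2 Wald test, where 95 of all tested genes passed, C1qb did so with an adjusted p of 0.0138. C1qa and C1qc did not, at adjusted p of 0.0961 and 0.0874 in that test. Vehicle replicate 3 was the highest of the 6 libraries for 21 of the 33.

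The 3 C1q chains, which bind antibody and debris and carry C1r and C1s, were called lower with and without vehicle replicate 3. Over all tested genes, 4.86% were called lower with that library and 2.92% without it. C1qb had normalized counts of 345, 393 and 935 in vehicle muscle and of 232, 179.5 and 147 in BML-260 muscle. The groups did not overlap for any of the 3 chains, where 6.75% of all tested genes were separated in this direction. The log2 fold changes were -1.40 (SE 0.43) for C1qa, -1.58 (SE 0.38) for C1qb and -1.44 (SE 0.44) for C1qc, and -0.67, -0.98 and -0.76 without vehicle replicate 3. These values are larger in size than those of C1ra and C1s1, which encode the proteases of the same complex, but the difference between the genes was not tested. C1q is made mainly by macrophages, and the proteases are also made by fibroblasts. Whether the cell source bears on these values was not tested.

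Of the 7 complement receptors besides C3ar1, all were tested and 3 were called lower, where 4.86% of all tested genes were. Itgam and Itgb2 encode the chains of complement receptor 3, which binds the iC3b fragment, and C5ar1 encodes the receptor for C5a. Their log2 fold changes were -1.74 (SE 0.54) for Itgam, -1.27 (SE 0.39) for Itgb2 and -1.13 (SE 0.46) for C5ar1. Itgam at -0.74 and Itgb2 at -0.64 were also called without vehicle replicate 3, and C5ar1 at -0.66 was not. There, 2.92% of all tested genes were called lower. Cd93, the most abundant of these genes by TPM, was at -0.11 (SE 0.17), or -0.15 without vehicle replicate 3.

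Among the proteases outside the 9 genes, Cfd (factor D, which cleaves factor B and is abundant in fat cells) was called lower on 1 library. Its normalized counts were 174, 240.1 and 3054 in vehicle muscle and 211, 208 and 158 in BML-260 muscle. Vehicle replicate 3 was 14.7 times the mean of the other 2 vehicle libraries. The log2 fold change of Cfd was -2.58 (SE 0.98), and without that library -0.10 (SE 0.22).

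Recognition molecules of the lectin pathway were sparse. Mbl1, Mbl2 and Colec10 were at 0 counts in all 6 libraries, 3 of the 7 listed genes were tested, and 0 of the 3 were called in edgeR's test, with 0 at an unadjusted p under 0.05. Colec12, the most abundant of them by TPM, was at -0.45 (SE 0.24), or -0.19 without vehicle replicate 3. Of the terminal components, C7 was the most abundant, at a log2 fold change of 0.047 (SE 0.34), or -0.085 without vehicle replicate 3, and C8a and C8b were at 0 counts throughout. The count of 0 in a library of this depth is a matter of detection and does not show that a gene is silent.

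The regulators moved in both directions. Of 5 tested fluid-phase regulators, 3 were lower and 2 higher, and 1 was called (over all tested genes, 4.86% lower and 0.896% higher). That gene was Vtn (vitronectin, which blocks the terminal complex), called higher at 0.44 (SE 0.18), with normalized counts of 445, 386 and 311 in vehicle muscle and of 458, 514 and 581 in BML-260 muscle. The Vtn groups did not overlap, and without vehicle replicate 3 the value was 0.31 (SE 0.17), no longer called. Clu (clusterin), the most abundant of them by TPM, was at -0.28 (SE 0.37) and at 0.21 without vehicle replicate 3. The 7 tested membrane regulators had a median log2 fold change of 0.024, or -0.093 without vehicle replicate 3. Csmd1, a membrane regulator known from brain, was called lower at -1.14 (SE 0.46) and not without vehicle replicate 3 (-0.41). Cd55, which dissolves C3 convertases on the cell surface and was the most abundant of this list by TPM, was at -0.24 (SE 0.19), and at -0.38 and called lower without vehicle replicate 3.

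**Figure D4:**
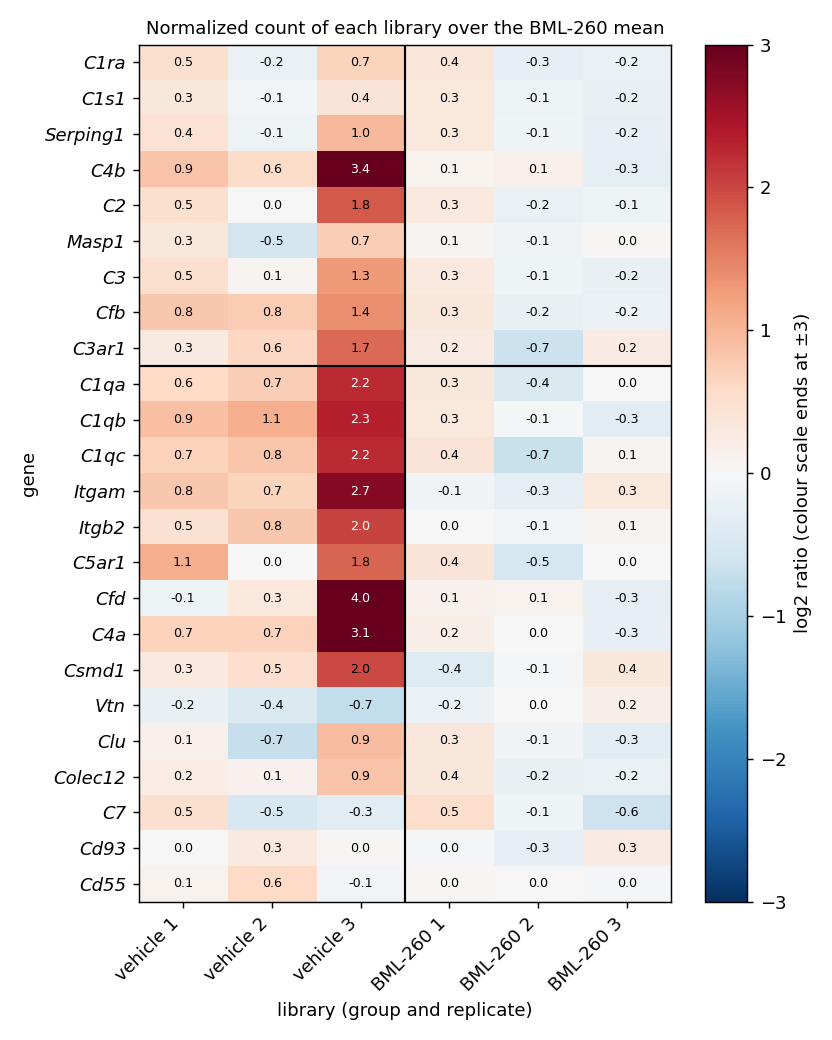
Log2 ratio of the normalized count of each library (x axis, vehicle left, BML-260 right) to the mean of the BML-260 libraries, for the 9 complement genes (above the line) and 15 other pathway genes named in the text (below it). The colour scale ends at 3 in either direction, and the column of vehicle replicate 3 holds the highest values for all 9 genes above the line, up to 3.4 for C4b.

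A list of 15 cytokines, receptors and transcription factors known to induce complement genes was read beside them. Of 12 tested genes, 11 were lower with BML-260 and 3 were called lower, the same 3 with and without vehicle replicate 3. Over all tested genes, 50.5% were lower, and 4.86% were called lower with vehicle replicate 3 and 2.92% without it. Without that library, however, 7 of 13 tested genes were lower and 6 higher, and the median log2 fold change went from -0.50 to -0.020. Il1b, which encodes the cytokine interleukin-1 beta, had normalized counts of 114, 33.2 and 279 in vehicle muscle and of 13.8, 18.0 and 22.1 in BML-260 muscle. Its groups did not overlap, and its log2 fold change was -3.00 (SE 0.70), or -2.07 without vehicle replicate 3. Osmr, the receptor chain for oncostatin M, was at -0.87 (SE 0.20) and at -0.64 without that library. Socs3, the feedback inhibitor induced by STAT3, was at -2.74 (SE 0.90) and at -0.76 without vehicle replicate 3. Its normalized counts were 215, 152 and 1807 in vehicle muscle and 74.2, 87.8 and 167 in BML-260 muscle, and the groups overlapped. Vehicle replicate 3 was 9.85 times the mean of the other 2 vehicle libraries, and DESeq2 gave Socs3 no p-value. Il6st, the shared signaling chain gp130 and the most abundant of the list by TPM, was at -0.067 (SE 0.19), or 0.11 without vehicle replicate 3. Il6, Tnf and Ifng had too few counts to be tested with all 6 libraries. The 13 genes tested without vehicle replicate 3 are a larger set, so the medians with and without it cover different genes.

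Most tested macrophage markers and all tested neutrophil markers were lower with BML-260. Of 8 macrophage markers, 6 were called lower (4 without vehicle replicate 3), where 4.86% (2.92%) of all tested genes were. The others were Cd68, at 0.0018 (SE 0.49) and at 0.39 without vehicle replicate 3, and Fcgr1, at -0.87 (SE 0.59) and at -0.62 without it. The summed TPM of the macrophage markers was 103 to 451 in the vehicle libraries and 68.2 to 85.1 in the BML-260 libraries. Of 6 neutrophil markers 4 were tested and all 4 were called lower with and without that library. In the DESeq2 Wald test, Adgre1 (adjusted p = 0.0163), Csf1r (0.0467), S100a8 (0.00441) and S100a9 (0.00465) passed 0.05. The other tested macrophage and neutrophil markers did not. The summed TPM of the 3 neutrophil markers with a TPM value was 23.6 to 799 in vehicle muscle and 6.67 to 11.9 in BML-260 muscle, and Ly6g, a defining neutrophil marker, had reads only in vehicle replicate 3.

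Stromal and fat markers moved less evenly. Over all tested genes, 4.86% were called lower and 0.896% higher, and 2.92% and 1.06% without vehicle replicate 3. Of 8 fibroblast markers 1 was called lower (Col1a1). That call was lost without vehicle replicate 3, while Col3a1 was called lower (-0.39) and Pi16 higher (0.56). Their summed TPM was 344 to 866 in vehicle muscle and 375 to 605 in BML-260 muscle. Of 5 adipocyte markers 4 were tested and 1 was called lower (Retn), while without vehicle replicate 3 none of the 5 then tested was called in edgeR's test, 0 at an unadjusted p under 0.05, and 4 of the 5 were higher. The summed TPM of the 3 adipocyte markers with a TPM value, which leave out Retn, was 26.4 in vehicle replicate 3 and 1.75 to 3.37 in the other 5 libraries. None of the 6 endothelial markers was called in edgeR's test, with 0 at an unadjusted p under 0.05 (summed TPM 61.5 to 84.5 in vehicle muscle and 59.7 to 73.9 in BML-260 muscle). The 7 lymphocyte markers had too few counts to be tested with all 6 libraries. Without vehicle replicate 3, 1 of them was tested, at a log2 fold change of 0.94, and it was not called. Of 5 hepatocyte markers, none was tested, and Ttr, Serpina1a and Fgb were at 0 counts in all 6 libraries. The part of any of these cell types in the values of the complement genes was not tested.

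Among the genes outside all lists whose log2 CPM followed the mean z-score of the 9 complement genes most closely over the 6 libraries were Soat1 (r = 0.998), S100a4 (r = 0.997), Man1a and Ddah2 (each r = 0.995). Without vehicle replicate 3 these 4 correlations lay between 0.975 and 0.997. The measure describes 6 libraries that share the contrast of vehicle replicate 3 with the rest, and 161 of 13503 genes compared had r above 0.95.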

How the data were processed

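RNA of 6 TA muscles (3 vehicle, 3 BML-260) was sequenced as stranded, ribosomal RNA-depleted total RNA, so unspliced transcripts are also present. The authors deposited raw counts per gene, without normalization, and TPM values per library. The submitters' processing notes name StringTie 2.1.3b, Bowtie2 2.3.4.1, HISAT2 2.1.0, Trimmomatic 0.38 and the build mm10. The strand setting and the treatment of multi-mapped reads are not given in the sources used here.

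Counts were tested in R 4.3.3 with edgeR 4.0.16: filterByExpr with the group (16188 genes, 99.9% of counts), TMM scaling, the quasi-likelihood F-test on all 6 libraries without covariates, and Benjamini-Hochberg adjustment over all tested genes. Standard errors of log2 fold changes were obtained as the absolute value over the root of the F statistic. Normalized counts are counts divided by DESeq2 1.42.0 size factors. Alternatives were DESeq2's own scaling in edgeR, no filter, a replicate block, each library left out, a minimum of 10 counts per library, the DESeq2 Wald test, limma 3.58.1 on log2(TPM + 1) or log2(TPM + 0.1), and paralogs summed. DESeq2 without vehicle replicate 3 was added after seeing the data. Each tool was tested on simulated counts.

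The 9 genes and all lists were chosen with earlier results of these data known, so no test was run on a list. The genes named outside the 9 were those of the lists past the call threshold, the most abundant gene of each list by TPM, and the 5 genes most like the 9, of which 1 is not reported here. Genes named for other reasons were chosen after their values were seen. These were list members at 0 counts, muscle fiber markers, Cd68, Fcgr1, Col3a1, Pi16, neighbours and overlapping genes, Ly6g, Il6, Tnf and Ifng. Names were matched for 45718 of 45777 gene identifiers through RefSeq GRCm38.p6, and locations are those of GENCODE for GRCm38, the assembly of mm10. Replicates are separate mice, 1 library each.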

Additional observations from a re-analysis of the deposited data

How the results depend on the processing

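Of 144 alternative values of the 9 log2 fold changes, 116 kept their direction and side of the threshold, 19 lost and 7 gained the call, and 2 reversed: Masp1 was at 0.016 without vehicle replicate 3 and at 0.021 in DESeq2 without that library. The number of the 9 genes called lower, 4 with edgeR, was 2 with the replicate block (C4b and C3 lost), 1 with limma on log2(TPM + 1), 2 on log2(TPM + 0.1), 1 without a filter on TPM, 2 in DESeq2 without vehicle replicate 3, and 2 to 8 with 1 library left out. Over all tested genes, 786 of 16188 were called lower with edgeR and 731 with the block. Limma called 443 of 15627 lower on log2(TPM + 1), 593 on log2(TPM + 0.1) and 393 of 16800 without a filter. DESeq2 without vehicle replicate 3 called 414 of 16502 lower. The highest number of the 9 genes was called without vehicle replicate 2, where C1ra, C2, Serping1 and Masp1 (at -0.55) were called in addition. There, 6.03% of all tested genes were called lower, within a range of 2.62% to 8.3% over the 6 libraries left out. The median log2 fold change of the 9 genes lay between -0.94 and -0.27 with 1 library left out, and was -0.27 in DESeq2 without vehicle replicate 3. The number with separated groups lay between 3 and 9 with 1 library left out. It was 9 without vehicle replicate 2 and 7 without BML-260 replicate 1. There, 12.7% and 10.9% of all tested genes were separated in that direction, shares that rise when a group has fewer libraries. On the deposited TPM values the number was 2 with all 6 libraries, and the share over all genes was not taken on that scale. Of the other pathway genes, 9 with edgeR, limma called 5 on log2(TPM + 1) and 4 without a filter, and 5 to 13 were called with 1 library left out. On the log2(TPM + 0.1) scale the median of all genes itself lay at -0.14. Of all tested genes, 1388 were called lower and 835 higher without vehicle replicate 1, and 439 lower and 64 higher without BML-260 replicate 2. The labels name no pairing of equally numbered libraries. The correlations of the deviations of such libraries were 0.162, 0.0541 and 0.110, and each library correlated best with its own number. Libraries of different number had correlations between -0.124 and -0.0206. Whether equally numbered libraries share more than a number was not tested. The block left 731 genes called lower and 326 higher. At 3 mice a group, and with 1 library apart, the standard errors of 0.20 to 0.68 limit what can be called among the 9 genes. The causes of these changes were not tested.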
